A study of Mus musculus with 7 samples.

Results

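The genes described here encode the proteins of the mitochondrial ribosome, and they were measured by RNA sequencing in whole heart lysate of non-transgenic (NTG) and mNrf2-TG mice. The members are all genes of the deposited table whose symbol starts with Mrpl or Mrps followed by a number, taken once per Entrez gene. They came to 78 of 14641 genes, 49 named for the large subunit (Mrpl) and 29 for the small subunit (Mrps).

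Mitochondria make a small set of respiratory chain and ATP synthase subunits from their own DNA, and they do so on a ribosome of their own. Its RNA comes from mitochondrial DNA, whereas its proteins are encoded in the nucleus, translated in the cytosol and imported. The small subunit reads the messenger RNA, the large subunit joins the amino acids, and the growing membrane proteins leave through a tunnel in the large subunit that opens at the inner membrane, and heart muscle is rich in mitochondria.

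The 4 NTG and 3 mNrf2-TG libraries came from male C57BL/6J mice, and mNrf2-TG is a line with the full-length mouse Nrf2 driven by the αMHC promoter, which is active in cardiomyocytes. An age of 6 months stands in the mNrf2-TG labels, none in the NTG labels, 7 to 8 months for both genotypes in the design text and 6 to 7 months in the study's methods. The libraries keep their sequencing numbers here, NTG 1 to 4 and mNrf2-TG 17 to 19, and hold 6534684 to 8405857 counted reads each. Nfe2l2, the gene of Nrf2, which also counts the transgene, had 729 to 1392 reads per NTG library, against 10912 to 12839 per mNrf2-TG library (Log2FC 3.36 ± 0.177 SE, adjusted p = 2.96e-06, edgeR quasi-likelihood test).

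Most mitochondrial ribosomal protein genes that changed were downregulated in mNrf2-TG hearts, and all changes were modest. Of the 78 members, 18 fell and 5 rose at an adjusted p under 0.05 in edgeR's quasi-likelihood test, with Benjamini-Hochberg adjustment over all 14637 genes tested, those whose counts sum to more than 1. That is 23.1% of the members lower and 6.41% higher, against a background over all genes tested of 8.73% lower and 8.48% higher (17.2% called in all). The mean difference ran from -17.8% to -40.0% among the members that fell, and from 28.4% to 33.7% among those that rose. DESeq2 called the same numbers, 18 lower and 5 higher, beside 9.98% and 8.77% of the genes it gave an adjusted p (18.8% in all). Restricted to genes with 10 or more counts in each library of a group, 19 of 77 members fell and 7 rose, beside 11.1% and 11.2% of all such genes (22.3% in all). No member passed the rule of an unadjusted p under 0.05 and more than a 2-fold change, which 5.65% of all genes passed.

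The Log2FC, the log2 ratio of mNrf2-TG over NTG, was below 0 for 49 members and above 0 for 29. Its median over the members was -0.12, beside 0.00 over all genes tested. Normalized counts of the groups did not overlap for 25 of 78 members lower and 8 of 78 higher in mNrf2-TG, where 14.7% and 15.0% of all genes tested showed no overlap in these directions (29.7% together). The members are moderately expressed: leaving out Mrpl36, their mean counts per library ran from 47.1 to 2855, with a median over the members of 400 against 123 over all genes, and the median SE of their Log2FC was 0.0899 against 0.149.

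The number of calls depended on single libraries. Of the 23 members called, 14 kept the call without NTG 2, 15 without mNrf2-TG 17, 13 without mNrf2-TG 18 and 15 without mNrf2-TG 19. Of the 78 members, 14 were called in all without NTG 2, 15 without mNrf2-TG 17 and 15 without mNrf2-TG 18 (2 of them, Mrpl53 and Mrpl54, newly called), when 10.9%, 9.39% and 10.2% of all genes were called. The share of members called in those fits was 17.9%, 19.2% and 19.2%, with 10, 12 and 9 members lower (5.42%, 4.57% and 5.11% of all genes) and 4, 3 and 6 higher (5.5%, 4.81% and 5.12%).

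Whole heart lysate holds several cell types, and fewer cells of a type cannot be told apart from less RNA per cell. Of 7 cardiomyocyte markers, 3 fell (Myl2, Tnni3 and Pln). Myh6, Tnnt2, Actc1 and Ryr2 were not called (Log2FC -0.28, -0.19, 0.09 and -0.24). The summed level of all 7 was 78649 to 82757 CPM in NTG and 66412 to 69078 CPM in mNrf2-TG. CPM are counts scaled to a fixed library size. Of 7 fibroblast markers 5 rose (summed level 1121 to 1450 CPM in NTG, 1628 to 1747 in mNrf2-TG), and of 5 macrophage markers 3 rose (129 to 188 and 223 to 309 CPM). Among 6 endothelial markers 1 rose and 2 fell, and among 5 smooth muscle markers 1 fell. The shares over all genes tested were 8.48% higher and 8.73% lower. None of these marker genes was at 0 counts in all libraries, and the part of cell composition in the members' differences was not tested.

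**Figure D1:**
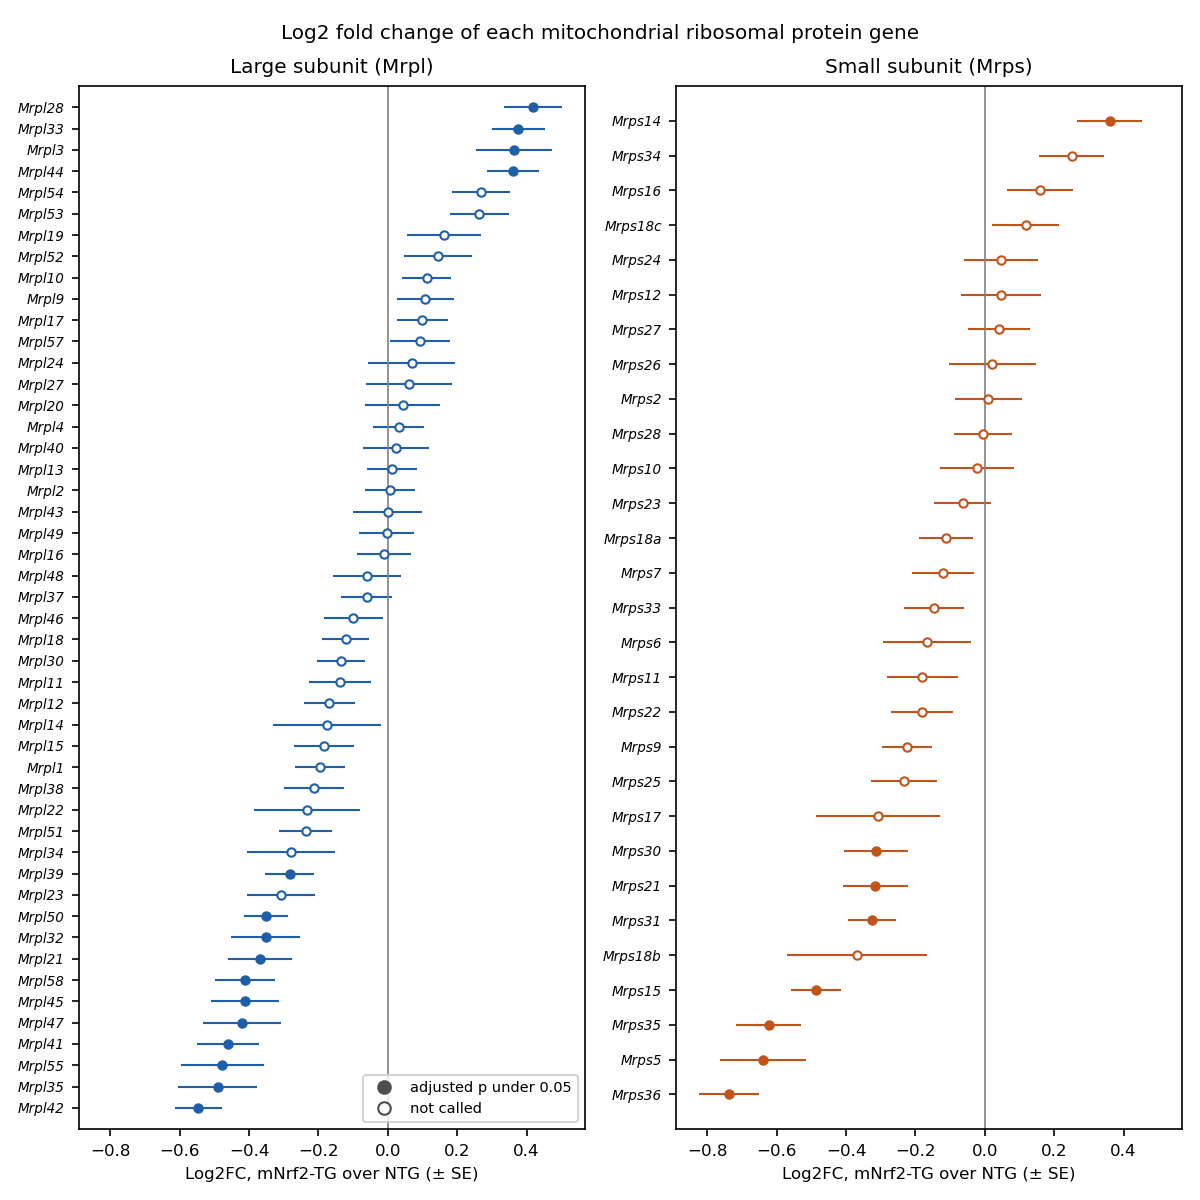
Log2FC of mNrf2-TG over NTG for 48 large subunit (left) and 29 small subunit (right) members, ordered by value, with lines of ± 1 SE from edgeR over 4 NTG and 3 mNrf2-TG libraries; filled points have an adjusted p under 0.05. Mrpl36, with almost no reads, is not drawn, and the values run from -0.74 (Mrps36) to 0.42 (Mrpl28).

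The largest fall among the members was that of Mrps36 (Entrez gene 66128, GRCm38 chr13:100735955-100744659, minus strand). It is named as a small subunit protein, but is known as a component of the 2-oxoglutarate dehydrogenase complex of the citric acid cycle rather than of the ribosome. Its normalized counts, scaled to a library of average size, were 322, 307, 326 and 354 in NTG 1 to 4 and 189, 206 and 193 in mNrf2-TG 17 to 19. Every mNrf2-TG library lay below every NTG library, at 196 ± 8.64 (SD, n = 3) against 327 ± 19.9 (SD, n = 4), a Log2FC of -0.74 ± 0.0858 (SE; adjusted p = 0.000657, edgeR). Of the 50-base stretches of Mrps36 transcripts, 17.3% also occur in other genes, among them its pseudogenes Mrps36-ps1 and Mrps36-ps2, so that the authors' counting could have split its reads.

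Mrps5, Mrps35 and Mrps15 fell most among the proteins of the small subunit itself. Mrps5 (chr2:127587222-127606829, plus strand), a relative of a bacterial protein near the site where messenger RNA enters, had normalized counts of 269, 274, 197 and 234 in NTG and 162, 157 and 149.8 in mNrf2-TG (Log2FC -0.64 ± 0.125 SE, adjusted p = 0.0082, edgeR). Mrps35 (chr6:147042764-147073991, plus strand), which bacterial ribosomes lack, had 806, 757, 732 and 862 in NTG and 505, 460.1 and 571 in mNrf2-TG (Log2FC -0.62 ± 0.0935 SE, adjusted p = 0.00252, edgeR). Both genes were lower in each mNrf2-TG library than in any NTG library, and NTG 3 was the lowest control for each. Mrps15 (chr4:126046925-126055532, plus strand), a relative of a bacterial protein that binds the small subunit's RNA, varied little within mNrf2-TG, at 416, 416 and 412 against 547, 606, 607 and 566 in NTG (Log2FC -0.49 ± 0.0717 SE, adjusted p = 0.00227, edgeR).

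Mrpl42 fell most in the large subunit, in which it was also the most abundant member per length. It encodes a protein that bacterial ribosomes lack and lies at chr10:95480805-95501940 on the minus strand. Its normalized counts were 3195, 3414, 3151 and 3441 in NTG and 2177, 2214 and 2388 in mNrf2-TG, so that the groups were far apart relative to their spread (3300.4 ± 148, SD, n = 4, and 2259 ± 113, SD, n = 3). The Log2FC was -0.55 ± 0.0681 (SE; adjusted p = 0.000925, edgeR).

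Mrpl41 and Mrpl58 also fell. Mrpl41 (chr2:24974117-24975098, minus strand), another protein without a bacterial relative, had normalized counts of 551, 549, 503 and 509.8 in NTG and 372, 348 and 429 in mNrf2-TG (Log2FC -0.46 ± 0.0891 SE, adjusted p = 0.00791, edgeR). Mrpl58 (chr11:115403752-115412674, plus strand), which resembles a translation release factor and can free peptides from stalled ribosomes, had 388, 402, 432 and 469 in NTG and 316, 307 and 330.4 in mNrf2-TG (Log2FC -0.41 ± 0.0867 SE, adjusted p = 0.0113, edgeR). The groups did not overlap for either gene, and both calls held in each of the 14 alternative fits described below.

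The remaining members that fell had a larger spread or smaller differences. Mrpl35, Mrpl55, Mrpl47, Mrpl45 and Mrpl21 had Log2FC of -0.49, -0.48, -0.42, -0.41 and -0.37 (adjusted p = 0.017, 0.0237, 0.0295, 0.0188 and 0.0229, edgeR). Each of these genes was lower in every mNrf2-TG library than in every NTG library. Without mNrf2-TG 18, where Mrpl35, Mrpl55, Mrpl47 and Mrpl45 were lowest, these 4 missed the threshold (adjusted p = 0.0670, 0.0760, 0.104 and 0.0740), as did Mrpl21 (0.0733). Each of the 5 also missed it without 1 or more of NTG 1, NTG 2, NTG 4, mNrf2-TG 17 and mNrf2-TG 19, at adjusted p = 0.0515 to 0.0903.

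Mrpl32, Mrpl50, Mrps31, Mrps21, Mrps30 and Mrpl39 lie below the 12 largest decreases and are named because few others remained, a choice made with their values known. Their Log2FC were -0.35, -0.35, -0.32, -0.32, -0.31 and -0.28 (adjusted p = 0.0369, 0.00621, 0.0116, 0.0441, 0.0427 and 0.0232, edgeR). Mrpl50 and Mrps31 had the narrowest spread, with normalized counts of 889 to 939.9 (NTG) and 692 to 729 (mNrf2-TG) for Mrpl50, and 496 to 523 and 393 to 420.3 for Mrps31. Mrps21 was the exception among the 23 called members in that its groups overlapped, since NTG 1 had 474 and mNrf2-TG 19 had 477. Mrpl32, Mrps21 and Mrps30 missed the threshold when libraries were scaled by their total alone (adjusted p = 0.0538, 0.0696 and 0.0666). With 1 library left out, the threshold was missed by Mrpl32 (kept without NTG 3 or mNrf2-TG 17), Mrps21 (kept without NTG 1), Mrps30 (kept without NTG 4) and Mrpl39 (kept without NTG 1 or NTG 3), at adjusted p = 0.0506 to 0.15.

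The 5 members that rose were Mrpl28, Mrpl33, Mrpl3 and Mrpl44 of the large subunit and Mrps14 of the small subunit. Mrpl28 (chr17:26123500-26126613, plus strand), which has a bacterial relative in the large subunit, had normalized counts of 842, 823, 759.9 and 696 in NTG and 1080.2, 978 and 1071 in mNrf2-TG (780.2 ± 66.3, SD, n = 4, and 1043 ± 56.4, SD, n = 3). Its Log2FC was 0.42 ± 0.0831 (SE; adjusted p = 0.00875, edgeR), the largest rise among the members called. Mrpl33 (chr5:31596935-31664384, plus strand), another protein with a bacterial relative, had 400.0, 366, 370.2 and 379 in NTG and 522, 457 and 496 in mNrf2-TG (Log2FC 0.38 ± 0.0765 SE, adjusted p = 0.00978, edgeR). The counts of Mrpl33 share 261 exon bases on the same strand with the gene model Gm43809.

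Mrpl44 (chr1:79776018-79781445, plus strand), whose protein has the fold of an RNA-cutting enzyme, had normalized counts of 401, 430.2, 427 and 471 in NTG and 569, 554 and 543 in mNrf2-TG (Log2FC 0.36 ± 0.0758 SE, adjusted p = 0.0112, edgeR). Mrps14 (chr1:160195215-160202170, plus strand), which has a bacterial relative in the small subunit, had 209, 238, 204 and 244 in NTG and 288, 273 and 301 in mNrf2-TG (Log2FC 0.36 ± 0.0938 SE, adjusted p = 0.0269, edgeR). In each of these genes all mNrf2-TG libraries lay above all NTG libraries. Mrpl3 (chr9:105053239-105079888, plus strand), which reaches toward the site of peptide bond formation, had 911, 950.3, 843 and 817 in NTG and 1350.3, 986 and 1064 in mNrf2-TG (Log2FC 0.36 ± 0.109 SE, adjusted p = 0.0461, edgeR). Its highest value came from mNrf2-TG 17, and without that library the Log2FC was 0.22 and the adjusted p = 0.158. Mrps14 missed the threshold without NTG 1 or any 1 of the mNrf2-TG libraries (adjusted p = 0.0502 to 0.0894), and Mrpl3 also without any 1 of the NTG libraries or mNrf2-TG 19 (adjusted p = 0.0614 to 0.0988).

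In the heat map of the 23 called members, 22 separate the genotypes without overlap, as 29.7% of all genes tested do. These members were picked by their p-values in the same libraries, so this separation adds no support to their calls. Calls of 12 members held in all 14 alternative fits, which comprise 7 fits without 1 library and 7 with another tool, scaling or filter. These were Mrps36, Mrps5, Mrps35, Mrpl42, Mrps15, Mrpl41, Mrpl58, Mrpl50 and Mrps31, which fell, and Mrpl28, Mrpl33 and Mrpl44, which rose. Of the 23 called members, 6 share exon bases with a gene on the other strand, the longest being 1068 bases of Mrpl47 with Ndufb5, and whether the authors counted by strand is not stated. In 5 of the 23 more than 5% of the 50-base stretches occur in other genes (Mrps36, Mrpl41 with 11.3%, Mrps21 with 8.76%, Mrps5 with 8.4% and Mrpl21 with 5.82%), so their values are uncertain to that extent.

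**Figure D2:**
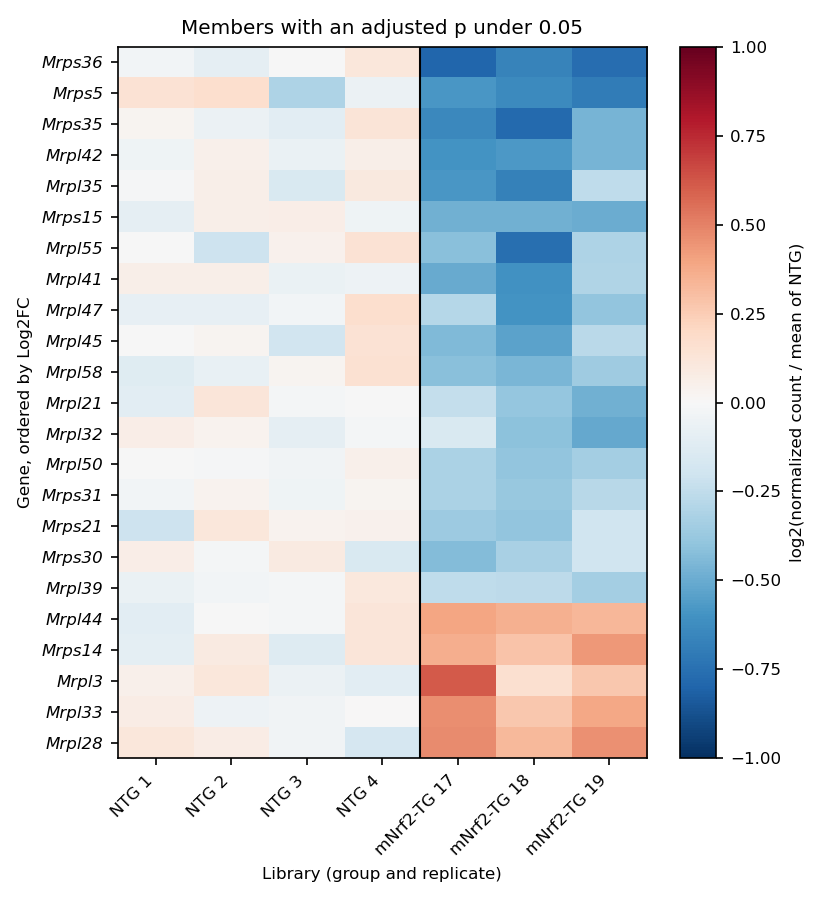
Heat map of log2 of each library's normalized count over the NTG mean for the 23 members with an adjusted p under 0.05, in order of Log2FC, with the 4 NTG libraries left of the line and the 3 mNrf2-TG libraries right of it. The 18 genes that fell are blue and the 5 that rose are red in mNrf2-TG 17 to 19, and Mrpl3 is most intense in mNrf2-TG 17.

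The members without a call included some with sizeable but noisy differences. Beside Mrpl36, the largest among these were Mrps18b (Log2FC -0.37 ± 0.201 SE, adjusted p = 0.238) and Mrpl23 (-0.31 ± 0.0992 SE, adjusted p = 0.0591). Mrpl23 had 270.1, 309, 249.5 and 296 normalized counts in NTG and 226, 213 and 242 in mNrf2-TG, without overlap. Of the 55 members not called, 7 had an adjusted p under 0.1: Mrpl23, Mrpl51, Mrps9 and Mrpl1 with a Log2FC below 0, and Mrpl54, Mrpl53 and Mrps34 with a Log2FC above 0. These 7 were picked by that limit, with their values known.

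Large and small subunit genes were then compared. In the large subunit 15 of 49 members passed the test, of which 11 fell and 4 rose. In the small subunit 8 of 29 passed, of which 7 fell and 1 rose. The shares were 30.6% and 27.6%, beside the 17.2% of all genes. The balance in the large subunit rested on mNrf2-TG 18, without which 4 members were called lower and 6 higher. Without NTG 2 they numbered 5 and 3, and in the small subunit the fits without mNrf2-TG 17, 18 or 19 each called 5 lower and 0 higher. The median Log2FC was -0.06 over the large subunit (-0.08 without Mrpl36) and -0.15 over the small subunit. Without mNrf2-TG 19 the medians were -0.118 and -0.117, in the opposite order. That fit tested 48 large subunit members, because Mrpl36 no longer passed the filter on summed counts.

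Summed over its members, each subunit was lower in mNrf2-TG hearts. The large subunit's summed CPM was 3585, 3587, 3513 and 3652 in NTG and 3419, 3117 and 3404 in mNrf2-TG, a mean difference of -7.56% (3584 ± 56.9, SD, n = 4, and 3313 ± 170, SD, n = 3). The small subunit's was 1531, 1560.5, 1507 and 1612 in NTG and 1435, 1323 and 1417 in mNrf2-TG, a mean difference of -10.4% (1553 ± 45.3, SD, n = 4, and 1392 ± 60.4, SD, n = 3). Neither sum overlapped between the genotypes, and mNrf2-TG 18 was the lowest library in both. These sums are given without a test, because the members were chosen together.

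A few genes made up much of these differences. A single gene, Mrpl42, accounted for 51.1% of the large subunit's difference, and without it the large subunit sums overlapped (3146 ± 42.6, SD, n = 4, in NTG and 3013 ± 166, SD, n = 3, in mNrf2-TG). Mrps35 accounted for 22.9%, Mrps15 for 13.7% and Mrps36 for 10.8% of the small subunit's difference. In the other direction, Mrpl28 and Mrpl3 were higher, with shares of -12.9% and -12.4% of the large subunit's difference. mNrf2-TG 18 was the lowest mNrf2-TG library for 53 of the 77 detected members and the lowest of all 7 libraries for 31.

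The ratio of the small to the large subunit sum was slightly lower in mNrf2-TG, at 0.420, 0.424 and 0.416 against 0.427, 0.435, 0.429 and 0.441 in NTG. The mean difference was -0.0130, or -3.01% of the NTG mean, and the groups did not overlap. Without Mrpl42 the difference was -0.0315 (-6.38% of the NTG mean). From geometric means, which average the members instead of summing them, it was -0.0304, on another scale than the ratio of sums. The absence of overlap also rests on how the genes are named. Mrps18a and Mrps30 are named for the small subunit but are built into the large one, and with those moved and Mrps36 left out the ratio was 0.373 ± 0.0086 (SD, n = 4) in NTG and 0.367 ± 0.0018 (SD, n = 3) in mNrf2-TG, with overlapping groups. By this assignment 16 of 51 large subunit members passed the test (12 lower, 4 higher, median Log2FC -0.10) and 6 of 26 small subunit members (5 lower, 1 higher, median Log2FC -0.13). The medians of the subunits thus lay closer together when genes were placed by structure.

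**Figure D3:**
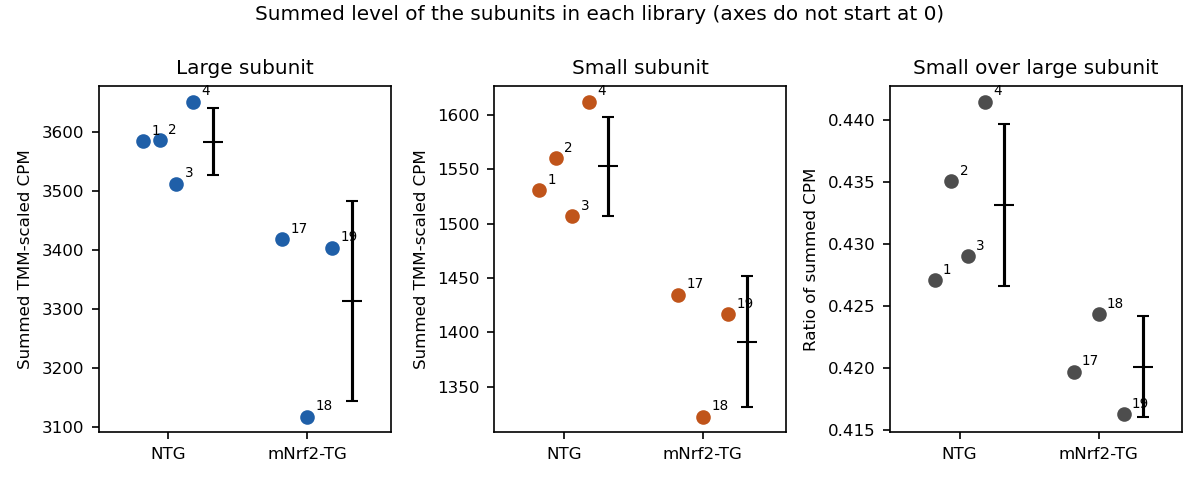
Summed TMM-scaled CPM of the 49 large subunit members (left), the 29 small subunit members (middle) and their ratio (right) in each library, numbered, with bars for the mean ± SD of each group. All 3 mNrf2-TG libraries lie below all 4 NTG libraries in each panel, and mNrf2-TG 18 is lowest in both sums.

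Members of the large subunit were grouped by their place in it. Around the tunnel exit, 3 of 8 proteins fell (Mrpl47, Mrpl45 and Mrpl39) and 1 rose (Mrpl44). Over all genes tested, 8.73% fell and 8.48% rose. The calls of Mrpl47, Mrpl45 and Mrpl39 held in 2, 3 and 2 of the 7 fits without 1 library. That of Mrpl44 held in all 7. Mrpl45 anchors the ribosome to the inner membrane, and its normalized counts were 682, 695, 597 and 756 in NTG and 501, 470.0 and 566 in mNrf2-TG. In the central protuberance, the crown of the large subunit that faces the transfer RNAs, 1 of 7 fell (Mrpl55).

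The stalk, which recruits translation factors to the ribosome, had no member called among its 5 (Mrpl10, Mrpl11, Mrpl12, Mrpl53 and Mrpl54). Of these, 3 had an unadjusted p under 0.05 in edgeR's test (Mrpl12 lower, Mrpl53 and Mrpl54 higher). Over all 14637 genes tested, 4708 did. Mrpl12, which also binds the mitochondrial RNA polymerase, had a Log2FC of -0.17 (adjusted p = 0.144), with 1071, 1006, 1057 and 1077 normalized counts in NTG and 999.5, 859 and 952 in mNrf2-TG. Mrpl53 and Mrpl54 had Log2FC of 0.26 and 0.27 (adjusted p = 0.0577 and 0.0554), and Mrpl10 and Mrpl11 of 0.11 and -0.14 (adjusted p = 0.312 and 0.32). Mrpl53 and Mrpl54 passed the threshold when weakly expressed genes were filtered more strictly (adjusted p = 0.0462 and 0.0436 with 10 or more counts in each library of a group).

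Grouped by origin, 8 of 30 large subunit members listed as relatives of bacterial ribosomal proteins were called (26.7%, 5 lower, 3 higher). In the small subunit 4 of 16 were called (25%, 3 lower, 1 higher). Of the members not so listed, 7 of 19 (36.8%, 6 lower, 1 higher) and 4 of 13 (30.8%, 4 lower) were called. The share over all genes tested was 17.2%. The unlisted members are a remainder, not proteins shown to lack bacterial relatives. They include Mrpl44 and Mrpl58, with the resemblances named above, and Mrps18a, Mrps18b, Mrps30 and Mrps36. Among the members that rose, Mrpl44 was the one not listed. The Mrps18 family has 3 members in mammals, and none was called: Log2FC was -0.11 for Mrps18a, -0.37 for Mrps18b and 0.12 for Mrps18c (adjusted p = 0.361, 0.238 and 0.438, edgeR). Of these, Mrps18b and Mrps18c share 14.6% and 9.62% of their 50-base stretches with other genes.

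Levels per length differed widely between members. Normalized counts per kilobase of the principal transcript had a median of 339 over 48 large subunit members and of 252 over 29 small subunit members. Mrpl42 led with 4286, followed in the large subunit by Mrpl30 with 1288 and Mrpl33 with 894. In the small subunit Mrps23 (1055), Mrps21 (1027) and Mrps18a (626) were highest and Mrps17 (9.38) was lowest. The most abundant small subunit gene, Mrps23, had 1434, 1385, 1301 and 1607 normalized counts in NTG and 1439.6, 1324 and 1347 in mNrf2-TG, which overlapped (Log2FC -0.06, adjusted p = 0.643).

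Mrpl36 stood apart from all other members. It had 0 counted reads in each NTG library and 0, 1 and 3 reads in mNrf2-TG 17 to 19, at or under a floor of 3 counts per library, so that no fold is given. When length was taken as the union of all exons, Mrps23 (901) lay above Mrpl42 (775). Within the large subunit Mrpl42 remained first and within the small subunit Mrps23 and Mrps21 first and second, while Mrpl30 and Mrpl33 came 13th and 44th in the large subunit and Mrps18a 13th in the small subunit.

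Promoters of members were searched for short motifs. Nrf2 acts by binding, together with small Maf proteins, to the antioxidant response element (ARE), whose core reads TGACNNNGC, and the motif was sought on both strands in the 250 bases before the start of transcription. RefSeq promoters (GRCm38.p6) were at hand for 69 of the 78 members. The ARE core was present in 11 of these (15.9%), beside 11.9% of the promoters of all genes tested. Of the members that fell, 6 of 17 held it (35.3%), beside 14.0% of the promoters of all genes that fell. Of the members that rose 0 of 5 held it, and of those not called 5 of 47 (10.6%). By subunit, 5 of 43 large and 6 of 26 small subunit promoters held it (11.6% and 23.1%). Each match is a match of letters, not a measured binding site.

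The promoters of 5 of the 6 members that fell and hold the motif are shown, with the matched letters in capitals. These members were picked because they fell, so their common direction is no result about the motif. The 5 members not called that hold it had Log2FC of -0.23 (Mrpl22) to 0.12 (Mrps18c). They run 5′ to 3′ on the strand of the gene, at chr4:126046678-126046927 (Mrps15, plus strand), chr11:115403502-115403751 (Mrpl58, plus strand), chr4:49521084-49521333 (Mrpl50, minus strand), chr8:22411090-22411339 (Mrps31, plus strand) and chr3:95871515-95871764 (Mrps21, minus strand).
Mrps15: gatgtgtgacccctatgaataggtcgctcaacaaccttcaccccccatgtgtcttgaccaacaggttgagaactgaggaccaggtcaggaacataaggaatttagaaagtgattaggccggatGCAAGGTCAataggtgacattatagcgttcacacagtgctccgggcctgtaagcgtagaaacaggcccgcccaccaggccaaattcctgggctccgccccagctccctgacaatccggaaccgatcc
Mrpl58: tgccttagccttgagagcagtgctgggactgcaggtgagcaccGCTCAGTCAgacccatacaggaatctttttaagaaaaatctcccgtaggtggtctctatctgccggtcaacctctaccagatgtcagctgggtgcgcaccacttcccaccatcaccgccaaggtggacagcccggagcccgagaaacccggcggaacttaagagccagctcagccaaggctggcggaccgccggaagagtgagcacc
Mrpl50: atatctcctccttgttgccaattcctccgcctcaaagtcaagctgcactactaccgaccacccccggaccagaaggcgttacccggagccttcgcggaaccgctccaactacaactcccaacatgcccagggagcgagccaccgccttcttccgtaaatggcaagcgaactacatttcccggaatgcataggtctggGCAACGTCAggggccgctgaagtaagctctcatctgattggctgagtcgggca
Mrps31: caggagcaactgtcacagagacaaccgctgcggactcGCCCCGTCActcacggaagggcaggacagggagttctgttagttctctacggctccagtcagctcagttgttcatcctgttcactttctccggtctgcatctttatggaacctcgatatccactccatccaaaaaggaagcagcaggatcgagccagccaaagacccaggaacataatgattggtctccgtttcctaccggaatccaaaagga
Mrps21: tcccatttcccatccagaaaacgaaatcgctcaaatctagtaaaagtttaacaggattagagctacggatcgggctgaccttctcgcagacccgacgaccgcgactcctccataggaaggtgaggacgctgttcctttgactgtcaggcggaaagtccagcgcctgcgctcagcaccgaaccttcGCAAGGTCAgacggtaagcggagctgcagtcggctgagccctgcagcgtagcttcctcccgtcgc
The match starts 127 bases before the start in Mrps15, 207 in Mrpl58, 53 in Mrpl50, 213 in Mrps31 and 65 in Mrps21, in each case on the strand opposite to the gene. The sixth, Mrps5, holds TGACAAGGC on its own strand 83 bases before the start that RefSeq gives, inside the gene by the annotation used for positions above.

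Promoters were also searched for motifs of factors known for genes of mitochondrial proteins. The motif of NRF1 (nuclear respiratory factor, a different protein from Nrf2), read here as GCGCA, any base and GCGC on both strands, was found in 10 of 69 members (14.5%) beside 7.45% of all genes, and in 9 of 43 large subunit (20.9%) but 1 of 26 small subunit promoters (3.85%). By call, the NRF1 motif was in 4 of 17 promoters of members that fell, 1 of 5 that rose and 5 of 47 not called (23.5%, 20% and 10.6%). CCGGAAG, the core bound by ETS factors such as GABP and also sought on both strands, was found in 17 of 69 (24.6%) beside 12.8%. It was in 12 of 43 large and 5 of 26 small subunit promoters (27.9% and 19.2%). By call, CCGGAAG was in 1 of 17 promoters of members that fell, 1 of 5 that rose and 15 of 47 not called (5.88%, 20% and 31.9%). Of all genes that fell, 7.55% held the NRF1 motif and 12.7% CCGGAAG. Matches of different motifs overlapped in 0 member promoters, and no test was made of these shares.

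Many members share a start region with a neighbour that is transcribed the other way. Such a partner within 1000 bases was found for 22 members (28.2%), beside 9.23% of all genes tested. Mrps11 and Mrpl46 are each other's partner, with starts 30 bases apart, and neither was called (Log2FC -0.18 and -0.10, adjusted p = 0.255 and 0.455). Of the 4 called members with a partner, Mrpl50 was the one whose partner moved with it: Zfp189, 124 bases away, also fell (Log2FC -0.58 ± 0.156 SE, adjusted p = 0.03). The partners of Mrps5, Mrpl41 and Mrpl32 (Zfp661, Pnpla7 and Psma2) had Log2FC of 0.07, 0.35 and 0.09 and were not called.

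Other genes of mitochondrial translation moved in both directions. In 6 lists of such genes, 14 of 92 (15.2%) passed the test, 7 higher and 7 lower, close to the background of 17.2%. Of 5 further proteins of the mitochondrial ribosome, Ptcd3, an RNA-binding protein of the small subunit, fell (1806, 1665, 1309.5 and 1297 normalized counts in NTG and 1047, 957 and 1271 in mNrf2-TG; Log2FC -0.48 ± 0.139 SE, adjusted p = 0.0416, edgeR). Dap3, which binds GTP in the small subunit, had 819 to 853 in NTG and 837 to 873 in mNrf2-TG (Log2FC 0.05, adjusted p = 0.666).

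Of 13 translation factors 2 rose and 1 fell. Tsfm, the elongation factor that recharges the carrier of transfer RNA with GTP, had 165, 177, 216 and 188 normalized counts in NTG and 316, 284 and 257 in mNrf2-TG (Log2FC 0.61 ± 0.113 SE, adjusted p = 0.00663, edgeR). Gfm2, which helps to split the ribosome after translation ends, rose as well (Log2FC 0.35, adjusted p = 0.0178, edgeR). Mtif2, the initiation factor that brings in the first transfer RNA, fell (Log2FC -0.33, adjusted p = 0.018, edgeR).

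Among 22 genes that charge mitochondrial transfer RNAs, 4 rose and 1 fell. Among those that rose, Ears2, Tars2 and Iars2, which load glutamate, threonine and isoleucine, had Log2FC of 0.45, 0.45 and 0.28 (adjusted p = 0.031, 0.0154 and 0.0202, edgeR), while Gatc, which takes part in making the glutamine form, fell (Log2FC -0.27, adjusted p = 0.0443, edgeR). Of 26 ribosome assembly factors, Dhx30, an RNA helicase, rose (Log2FC 0.27, adjusted p = 0.0367, edgeR). Of 16 genes for mitochondrial DNA, its transcription and RNA processing, Hsd17b10 and Supv3l1 fell (Log2FC -0.30 and -0.25, adjusted p = 0.0289 and 0.047, edgeR).

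Of 10 regulators of mitochondrial biogenesis, 2 fell. Ppargc1a, the coactivator PGC-1α, had 4166, 5953, 7439.6 and 3296 normalized counts in NTG and 2946, 2034 and 1293 in mNrf2-TG, a wide spread in both groups without overlap (Log2FC -1.32 ± 0.312 SE, adjusted p = 0.0184, edgeR). Esrrg, a nuclear receptor that works with it, had 694 to 766 in NTG and 548 to 619.7 in mNrf2-TG (Log2FC -0.35 ± 0.0743 SE, adjusted p = 0.0119, edgeR). The count of 14 called genes in these lists fell to 6 without mNrf2-TG 17, to 7 without NTG 2 or mNrf2-TG 19 and to 8 without NTG 1 or mNrf2-TG 18. The share of all genes called fell as well, from 17.2% to 9.39% without mNrf2-TG 17 and 10.9% without NTG 2. It was 11.2% without mNrf2-TG 19, 11% without NTG 1 and 10.2% without mNrf2-TG 18.

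**Figure D4:**
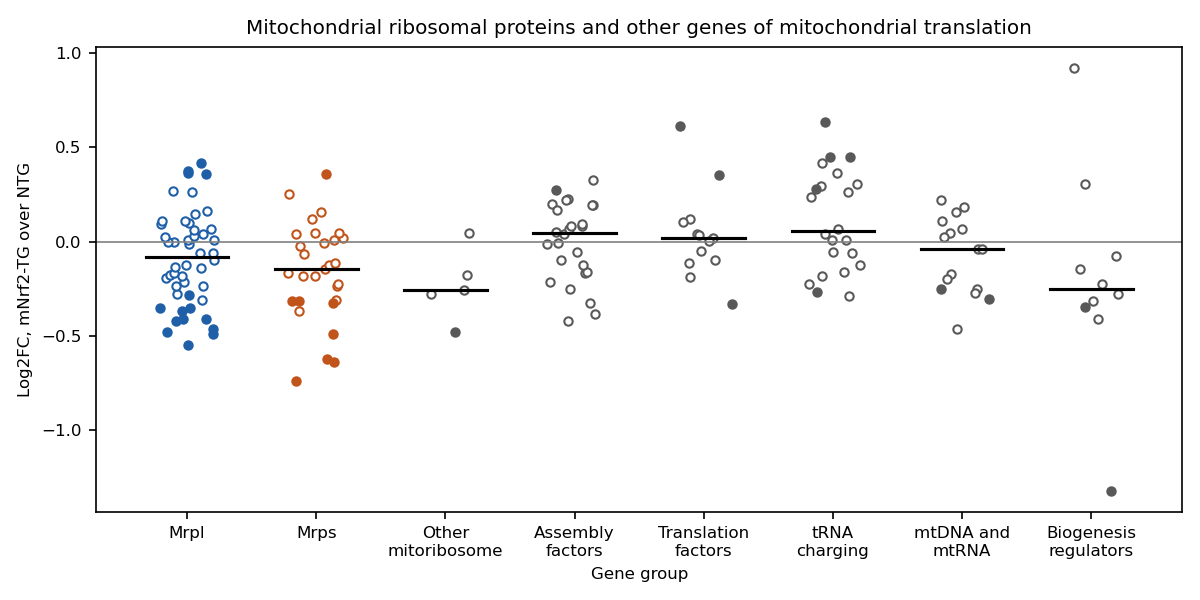
Log2FC of mNrf2-TG over NTG for the members (Mrpl and Mrps) and for 6 lists of related genes, 1 point per gene, filled where the adjusted p is under 0.05, with a bar at each median (Mrpl36 not drawn and not in its median). The medians are -0.08 for Mrpl and -0.15 for Mrps, and Ppargc1a is the lowest point at -1.32.

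The members were set beside the cytosolic ribosome and beside the respiratory chain and ATP synthase, whose mitochondrial subunits their ribosome makes. Of 78 cytosolic ribosomal protein genes 14 rose and 5 fell (17.9% and 6.41%, median Log2FC 0.07), the opposite balance to that of the members. The shares over all genes tested were 8.48% higher and 8.73% lower. Of 83 nuclear genes for respiratory chain and ATP synthase subunits 7 rose and 26 fell (8.43% and 31.3%, median Log2FC -0.11). The summed levels of these 83 overlapped, at 54504 to 57513 CPM in NTG and 52269 to 55537 CPM in mNrf2-TG. No test compared these lists with the members.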

How the data were processed

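RNA from 4 NTG and 3 mNrf2-TG hearts was made into stranded poly(A) libraries and read from one end, 50 bases per read. The deposited counts are the authors' reads per gene without normalization. Submitters' notes name Novoalign 2.08.01, DESeq2 1.32.0 and mm10 (GRCm38), while the methods name hg19 for the index; the counting program and its strand setting are not given in the sources used here. The authors' table of fold changes and p-values was used for gene symbols only.

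Of 14665 entries, 24 repeats of an Entrez gene were removed. Counts were scaled by TMM and tested with edgeR 4.0.16 (R 4.3.3; quasi-likelihood, no covariates, all 7 libraries, summed count above 1), with Benjamini-Hochberg adjustment over 14637 genes. Normalized counts are CPM times the mean library size of 7526179 reads. Alternatives were DESeq2 1.42.0, limma-voom (limma 3.58.1), other scalings and filters, and fits without 1 library. The fit was also run on simulated counts of 14606 genes, with 50 changed genes of each size. It called 6% of those with a true Log2FC of 0.3 above or below 0, 60% at 0.6 and 98% at 1. Of its calls, 2.22% were false. Fewer genes changed there than were called in the data, so recovery may differ. A member not called may thus still differ by about 0.3. Whether libraries are separate animals is taken from the study's description of its groups, and p-values measure the spread between libraries. The study names its controls litter mates, but the labels give no litters, so any pairing between the groups is unknown.

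Named were members with an adjusted p under 0.05 (at most 12 largest increases and 12 largest decreases), the 3 highest and the lowest of each subunit by level per length, stalk and Mrps18 members, Mrps30 and Mrps36, the 3 largest differences not called, and up to 4 called genes of each related list, of which 1 is not reported here. Members, lists and rules were chosen with earlier results of these data known. Gene models and positions came from GENCODE M21 (GRCm38). Of the other marker lists, 1 of 3 atrial markers found rose and 1 of 5 skeletal muscle markers fell (edgeR). None of 4 red blood cell or 2 adipocyte markers found was called. The background shares were 8.48% higher and 8.73% lower.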

Additional observations from a re-analysis of the deposited data

Results flagged for a closer look

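Normalized counts of the named members were examined in the 4 NTG libraries for a single library far from the other 3; groups of 3 libraries were not examined. In 2 of 34 NTG groups of values examined, NTG 2 stood below the others by more than the 95% limit for a group of this size. For Mrpl10, a stalk protein, NTG 2 had 571 normalized counts where the others had 632 to 640.3. For Mrps17, a small subunit protein with few reads, NTG 2 had 39.6 where the others had 54.6 to 56.8. Neither gene was called, and chance marks about 1 in 20 groups.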

How the results depend on the processing

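No Log2FC of a named member, subunit median or difference in the subunit ratio changed sign under the alternatives run. The balance of calls in the large subunit did, at 4 lower and 6 higher without mNrf2-TG 18. The order of the subunit medians turned without mNrf2-TG 19 (-0.118 and -0.117), in a fit that also left out Mrpl36. With DESeq2, limma-voom, DESeq2 size factors or no filter, 5 members were higher and 18 lower as before; library totals alone gave 5 and 15 (median of all genes shifted by 0.03), and the filters of edgeR and of 10 counts gave 7 and 18, and 7 and 19, of 77. Without 1 library, the large subunit had 8 to 15 members called (8 without NTG 2) with a median Log2FC of -0.118 to -0.0390, and the small subunit 5 to 8 (5 without any 1 of the mNrf2-TG libraries) with a median of -0.158 to -0.102. The related lists had 6 to 19 genes called, while the share of all genes called ran from 9.39% to 22.3% over the alternatives. An unadjusted p under 0.05 with a 2-fold change left 0 large and 0 small subunit members. The difference in the small to large ratio was -0.0152 to -0.0103 without 1 library and -0.00628 with subunits assigned by structure. From geometric means it was -0.0304, on another scale than the ratio of sums. Without Mrpl42 it was -0.0315, a setting chosen after the data were seen, as was the exon-union length for levels. Over the 7 fits without 1 library, the 23 called members lost the call 51 times in all and other members gained it 7 times; over the 7 other settings these numbers were 3 and 5. Small groups limit precision: differences of the members' size were called or missed depending on 1 library, and the cause was not tested. No paired analysis was made, because neither the labels nor the replicate numbers tell which animals were litter mates. Library numbers run from 1 to 4 in NTG and from 17 to 19 in mNrf2-TG, so that genotype and any order of handling they stand for cannot be told apart.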
